A study of Mus musculus with 6 samples.

Results

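The AP-1 genes described here are 10 genes of the basic leucine zipper (bZIP) class in mouse neural stem cells (NSCs): the Fos family (Fos, Fosb, Fosl1 and Fosl2), the Jun family (Jun, Junb and Jund), Batf3, and the small Maf genes Maff and Mafk. They are 10 of the 52438 genes that carry values in the deposited table, were found by their gene symbols, and were chosen by their family with the difference between the genotypes already known, so that this difference is described for them and not tested.

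The NSCs were primary cells of the embryonic mouse cortex, either wild type (WT) or heterozygous for a mutation of Setd5 made with CRISPR-Cas9 (Setd5+/-). Setd5 encodes a SET domain protein of chromatin, and the study grew these cells in ambient oxygen to ask how the loss of 1 copy bears on mitochondrial genes. Both genotypes were grown attached to Matrigel at 21% O2, in medium with 10 ng/ml of epidermal growth factor (EGF) and 10 ng/ml of basic fibroblast growth factor (bFGF), and were scraped and pelleted in cold buffer before RNA extraction. The labels list 3 samples of each genotype. The columns of the table give a single clone name, A3, for all Setd5+/- samples, which is not among the mutant clones that the text of the study names.

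AP-1 is a dimer of bZIP proteins. Fos proteins do not bind DNA as stable pairs of their own and act with a partner, most often a Jun protein, whereas Jun proteins can also pair among themselves. Dimers of Fos and Jun proteins bind the sequence TGACTCA or the related TGACGTCA, and either kind can also pair with other bZIP proteins such as Maf and ATF members. Fos, Fosb, Jun and Junb are immediate early genes, which growth factors switch on within minutes through ERK kinases and the serum response factor (SRF) and whose mRNAs are short-lived, while Jund is expressed more evenly. In neural cells these genes are widely used as a readout of stimulation.

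The 3 samples of a genotype differed by no more than random sampling of read pairs. The chi-square per degree of freedom of their read pairs was 0.958 to 0.981 in the 6 comparisons within a genotype and 31.695 to 31.934 in the 9 comparisons between genotypes. They were therefore counted as parts of 1 library, n is 1 per genotype, and no difference has a replicate check. The same index and lane were also shared by the samples of a genotype and differed between the genotypes, so that neither clone nor library, index or lane can be separated from genotype, and their parts cannot be told apart. Between 9995980 and 10004948 reads fell on genes in the WT samples and between 7143309 and 7146147 in the Setd5+/- samples. Levels are normalized counts, the reads of a gene divided by a size factor of the sample, and 1 read was worth 0.827 to 0.829 normalized counts in WT and 1.191 to 1.192 in Setd5+/-. All intervals below are 95% intervals that cover counting error only.

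The targeted gene, Setd5 (ENSMUSG00000034269), had 2498, 2749 and 2780 normalized counts among the WT samples, against 2151, 1990 (1989.9) and 2055 among those of Setd5+/-. The groups did not overlap, and the log2 fold change of Setd5+/- against WT was -0.37 (-0.44 to -0.31). NSC markers were detected in both libraries, but not all of them well. Prom1 was at 24.6 normalized counts in WT and 2.38 in Setd5+/-, where it had 6 reads. It passed the filter described below through its WT level. Of 10 NSC markers, 3 were at least 2-fold lower in Setd5+/- (Fabp7, Prom1 and Hes1), against 6.14% of all genes past the filter. The other 7 (70%), among them Nes and Sox2, lay within 2-fold, against 83.6% of all genes past the filter. Hes1, Nes and Sox2 were named after their values were seen.

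The promoters of 6 of the genes are shown first, since they let those whose mRNA differed most between the libraries (Fos, Fosb, Junb and Jun) be read beside a pair that differed least (Fosl2 and Mafk). Each run is the 250 bases before the RefSeq transcription start (GRCm38.p6), on the strand of the gene and 5′ to 3′. The windows lie at chr12:85473640-85473889 (Fos, plus strand), chr7:19310046-19310295 (Fosb, minus), chr8:84978749-84978998 (Junb, minus), chr4:95052223-95052472 (Jun, minus), chr5:32136222-32136471 (Fosl2, plus) and chr5:139791286-139791535 (Mafk, plus). Capitals mark matches to the motifs that are described after the sequences.

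Fos: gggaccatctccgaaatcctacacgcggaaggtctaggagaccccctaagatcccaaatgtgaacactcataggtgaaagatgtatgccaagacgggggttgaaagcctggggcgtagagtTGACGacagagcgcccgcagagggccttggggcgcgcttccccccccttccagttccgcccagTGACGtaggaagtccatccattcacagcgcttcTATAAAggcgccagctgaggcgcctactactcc
Fosb: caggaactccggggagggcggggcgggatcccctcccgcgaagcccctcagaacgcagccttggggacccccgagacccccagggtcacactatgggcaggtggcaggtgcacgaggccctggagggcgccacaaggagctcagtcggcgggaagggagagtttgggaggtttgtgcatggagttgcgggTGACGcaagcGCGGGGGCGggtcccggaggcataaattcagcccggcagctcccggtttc
Junb: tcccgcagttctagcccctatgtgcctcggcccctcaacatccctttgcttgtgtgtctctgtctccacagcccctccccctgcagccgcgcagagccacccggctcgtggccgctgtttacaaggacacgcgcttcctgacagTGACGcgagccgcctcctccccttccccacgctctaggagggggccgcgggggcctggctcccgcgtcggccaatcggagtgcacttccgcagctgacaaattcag
Jun: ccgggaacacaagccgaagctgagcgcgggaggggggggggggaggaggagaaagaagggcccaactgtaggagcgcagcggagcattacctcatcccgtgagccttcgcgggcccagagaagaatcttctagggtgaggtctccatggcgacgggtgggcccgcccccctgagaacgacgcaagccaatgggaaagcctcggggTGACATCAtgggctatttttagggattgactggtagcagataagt
Fosl2: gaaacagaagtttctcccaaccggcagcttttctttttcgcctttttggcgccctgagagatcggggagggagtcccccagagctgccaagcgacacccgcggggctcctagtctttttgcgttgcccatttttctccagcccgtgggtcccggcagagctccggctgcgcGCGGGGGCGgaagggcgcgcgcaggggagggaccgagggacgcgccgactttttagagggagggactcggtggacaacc
Mafk: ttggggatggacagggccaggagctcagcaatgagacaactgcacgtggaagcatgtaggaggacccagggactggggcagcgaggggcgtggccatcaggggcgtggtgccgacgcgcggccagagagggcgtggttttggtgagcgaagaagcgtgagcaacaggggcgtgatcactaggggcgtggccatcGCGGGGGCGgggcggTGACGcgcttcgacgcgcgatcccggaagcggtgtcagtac

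The motifs searched on both strands were TGACG, the core of a CREB site, TGACGTCA, the full site, which contains TGACG, TGACATCA, a variant to which Jun with ATF2 binds, TGACTCA, the AP-1 site, GCGGGGGCG, the site of Egr1, TATAAA, the TATA box, and the CArG box of SRF. RefSeq gave windows for 9 of the 10 genes, 11 windows in all, of which 3 belong to Maff. Fos held TGACG at 129 to 125 and at 66 to 62 bases before its start, and TATAAA at 33 to 28. Fosb held TGACG at 60 to 56 and GCGGGGGCG at 50 to 42, and Junb held TGACG at 106 to 102. Jun held TGACATCA at 45 to 38. The pair with little difference in mRNA held motifs as well, GCGGGGGCG at 79 to 71 in Fosl2, and in Mafk GCGGGGGCG at 56 to 48 and TGACG at 41 to 37. TGACG thus stood in the windows of 5 of the 9 genes, on either side of the comparison, and in 17.8% of all 32851 RefSeq windows. GCGGGGGCG stood in those of 3 genes and in 2.57% of all windows, and TGACATCA in those of 2 genes (Jun and Maff) and in 2.93% of all. TGACGTCA was found only in Maff among the 9 genes and in 1.55% of all windows, and TATAAA only in Fos and in 12.4% of all. Neither TGACTCA (4.46% of all windows) nor the CArG box (1.47%) was found in any window of the 9 genes. Bases outside these windows were not searched, so a gene without a match may still hold the site elsewhere. The window of Jund also ends before the start of that gene as given below. The windows of Fosl2 and Batf3 lie wholly inside those genes as located below, as do the later windows of Maff. Those of Fosb and Mafk run a little past the located start. The AP-1 genes were counted over all their windows and the percentages over single windows, which favours Maff with its 3 windows. A match is a stretch of letters in this window and not a measured binding site.

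Of the 10 genes, 9 passed a filter that asked for 10 or more normalized counts as the mean of the 6 samples. Fold changes are on the scale of log2(mean normalized count + 1), Setd5+/- minus WT, and a gene was called higher or lower where it differed at least 2-fold on that scale. Fos, Fosb, Jun, Junb and Maff were lower (5 of 9), no gene of the 9 was higher, and Fosl1, Fosl2, Jund and Mafk lay within 2-fold. Of all 16266 genes that passed the filter, 6.14% were lower, 10.3% higher and 16.4% either, and the median log2 fold change was -0.02, against -2.43 for the 9 AP-1 genes. Since the genes were chosen from this contrast, nothing is read from these counts. Values of the genotypes did not overlap in 8 of the 9 genes, 7 lower and 1 higher in Setd5+/-, which was also so for 65.3% of all genes past the filter. Fosb and Maff were under 10 normalized counts in Setd5+/- and passed through their WT level. In bulk RNA, fewer cells that express a gene and less RNA per cell cannot be told apart.

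**Figure D1:**
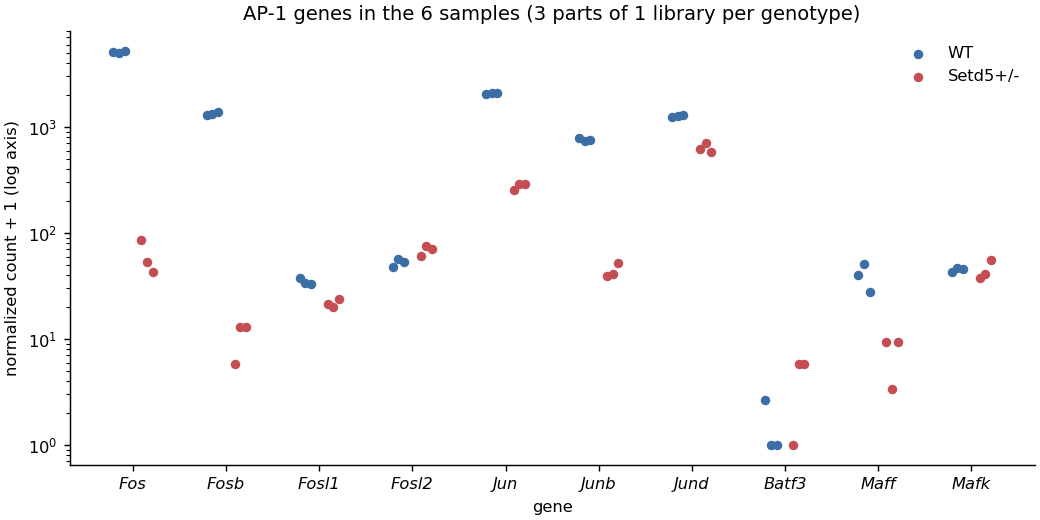
Normalized count plus 1 (log axis) of each AP-1 gene in the 3 WT samples (blue) and the 3 Setd5+/- samples (red), each point 1 sample. The WT points of Fos lie between 4999 and 5223 before the 1 is added and its Setd5+/- points between 41.7 and 85.8, while the points of Mafk from the libraries overlap.

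Within the Fos family, Fos and Fosb, its immediate early members, were far lower in the Setd5+/- library, and the Fos-related Fosl1 and Fosl2 lay within 2-fold of their WT levels. Fos (ENSMUSG00000021250, chr12:85473890-85477273, plus strand, 4 exons) encodes the founding Fos protein. The WT samples held 5124, 4999 and 5223 normalized counts of it, against 85.8, 52.4 and 41.7 in Setd5+/-. Every WT sample was far above every Setd5+/- sample, and the highest of the Setd5+/- samples stood somewhat apart from the others. The mean was 85.3-fold lower in Setd5+/- (68.3 to 106.5), or 1.17% of WT, on 18529 reads in WT and 151 in Setd5+/-, and the log2 fold change was -6.39 (-6.71 to -6.08). Without the first Setd5+/- sample it was -6.73.

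Fosb (ENSMUSG00000003545, chr7:19302696-19310051, minus strand) encodes a Fos protein whose shorter splice form, ΔFosB, is known from neurons. It was at 1304, 1341 and 1384 normalized counts in WT, against 4.77, 11.9 and 11.9 in Setd5+/-. The groups lay far apart, and only 24 reads supported the Setd5+/- level against 4864 in WT. Fosb was 140.9-fold lower (80.9 to 245.4), and its log2 fold change was -7.00 (-7.72 to -6.27). Gene totals do not separate its splice forms.

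Fosl1 (ENSMUSG00000024912, chr19:5447547-5455946, plus strand), whose protein FRA1 lacks the strong activation domain of Fos, was at 36.5, 33.1 and 32.3 normalized counts in WT and 20.3, 19.1 and 22.6 in Setd5+/-. The samples did not overlap, but the log2 fold change was -0.69 (-1.31 to -0.07) and its interval reached almost to 0. Fosl2 (ENSMUSG00000029135, chr5:32135801-32157842, plus strand) encodes FRA2, the other protein of that kind. It was at 46.4, 56.3 and 52.2 normalized counts in WT and 59.6, 73.8 and 69.1 in Setd5+/-. It was the only AP-1 gene past the filter with all Setd5+/- samples above all WT samples, and its log2 fold change of 0.38 had an interval that included 0 (-0.03 to 0.79).

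In the Jun family all 3 genes had lower values in Setd5+/-, in the order Junb, Jun, Jund by the size of the difference. Junb (ENSMUSG00000052837, chr8:84974484-84978718, minus strand) encodes a Jun protein that activates less strongly than Jun at single AP-1 sites. Its normalized counts were 779.5, 739.6 and 761.1 in WT and 38.1, 40.5 and 51.2 in Setd5+/-. The groups did not overlap, and Junb was 17.6-fold lower (13.5 to 22.9), at a log2 fold change of -4.10 (-4.48 to -3.73).

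Jun (ENSMUSG00000052684, chr4:95049034-95052222, minus strand) is an intronless gene, and its protein c-Jun is the main target of the JNK kinases. It was at 2048, 2096 and 2099 normalized counts in WT and at 251.5, 290.6 and 290.7 in Setd5+/-. The samples within each library lay close together, far from those of the other. Jun was 7.50-fold lower (6.74 to 8.35), at a log2 fold change of -2.90 (-3.06 to -2.75), and 699 reads remained in Setd5+/-. Its interval did not overlap that of Junb.

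Jund (ENSMUSG00000071076, chr8:70698949-70700616, plus strand), the Jun gene that is usually expressed without stimulation, was at 1237, 1276 and 1291 normalized counts in WT and at 618.6, 707.4 and 578.9 in Setd5+/-. The groups did not overlap, and the log2 fold change of -0.997 (-1.11 to -0.88) was just short of 2-fold. Jund was called lower under other scalings, so its place on either side of the threshold was not settled.

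**Figure D2:**
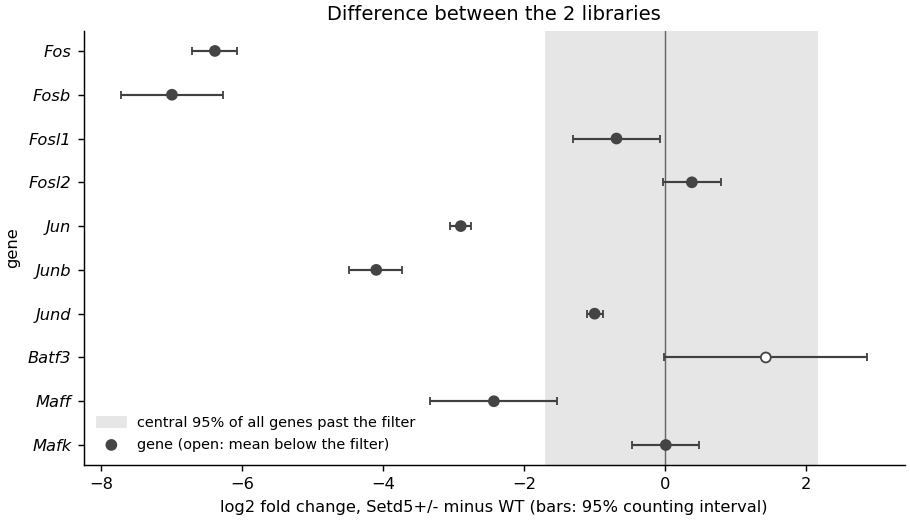
Log2 fold change of each AP-1 gene, Setd5+/- minus WT (horizontal axis), with its 95% counting interval as bars, over the central 95% of all genes past the filter (-1.69 to 2.15, grey). Fos, Fosb, Jun, Junb and Maff lie to the left of the grey range, and Batf3 is drawn open because its mean was below the filter.

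Maff (ENSMUSG00000042622, chr15:79346621-79359076, plus strand) and Mafk (ENSMUSG00000018143, chr5:139791513-139802653, plus strand) encode small Maf proteins, which have no activation domain and act with partners such as NRF2 and BACH1. Maff was at 39.0, 50.5 and 26.5 normalized counts in WT and at 8.34, 2.38 and 8.34 in Setd5+/-. All WT samples were above all Setd5+/- samples, and Maff was 6.08-fold lower (2.97 to 12.4) on 140 and 16 reads, a log2 fold change of -2.43 (-3.34 to -1.53). Mafk was at 41.5, 45.5 and 44.7 in WT and at 36.9, 40.5 and 54.8 in Setd5+/-. Its values overlapped, and the log2 fold change was 0.01 (-0.47 to 0.48), an interval that leaves room for differences of either sign.

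Batf3 (ENSMUSG00000026630, chr1:191097847-191108945, plus strand), a partner of Jun proteins known from dendritic cells, was barely detected. It was at 1.66, 0 and 0 normalized counts in WT and at 0, 4.76 and 4.76 in Setd5+/-. These are 2 reads in WT and 8 in Setd5+/-, or 1 and 4 read pairs, and the ratio of Setd5+/- to WT was 5.75 with an exact binomial interval of 0.569 to 283. No difference was detectable at this depth. Batf3 lies on chromosome 1, whose 1044 genes past the filter had a median log2 fold change of 0.53, against -0.04 for those on other chromosomes.

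Set against all 16266 genes past the filter, ordered from the lowest log2 fold change, Fosb was number 6, Fos 14, Junb 64, Jun 160, Maff 213 and Jund 1004. Among the 10651 genes whose mean reached 100 normalized counts, Fosb was number 4, Fos 9, Junb 18, Jun 48 and Jund 439. Of these, Fosb (9.53), Fos (60.0) and Junb (43.3) were under 100 normalized counts in Setd5+/- and reached that mean through their WT level. Since the genes were chosen with this contrast known, nothing is read from these places. Fosl1 was number 1951, Mafk 8374 and Fosl2 11884 of all.

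**Figure D3:**
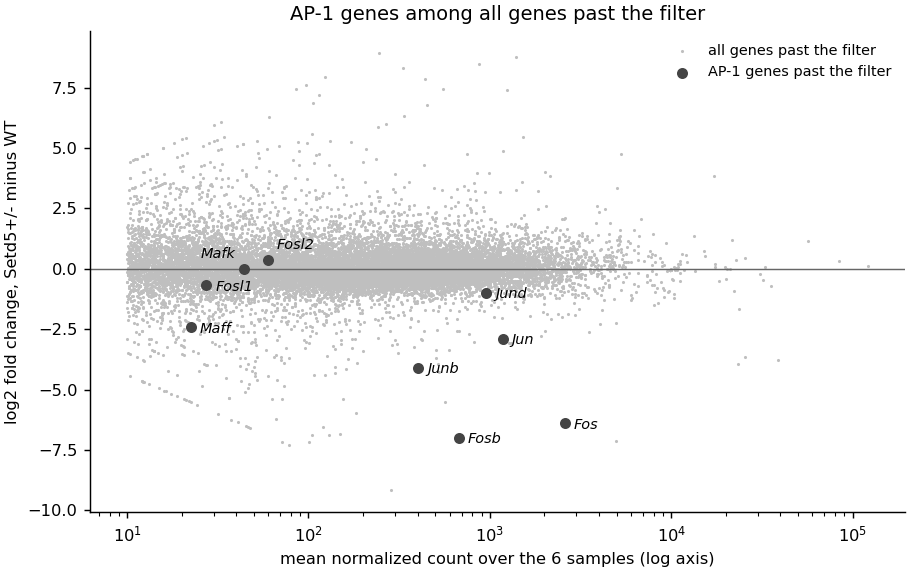
Log2 fold change (Setd5+/- minus WT) against the mean normalized count over the 6 samples (log axis), for 16266 genes past the filter (grey) and the 9 AP-1 genes among them (dark points). Fos, Fosb, Junb and Jun lie below the main cloud at high means, while Fosl1, Fosl2 and Mafk lie within it at low means.

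Levels of different genes were compared per kb of annotated exon (union of all transcripts in GENCODE M21), which sets a gene with long minor transcripts, such as Fosb with 6.24 kb, too low. For Jund the RefSeq window ends at 70697738, before the GENCODE start at 70698949. Its 1.67 kb may therefore be too short and its level too high. In WT, Fos had the highest level, at 2175 normalized counts per kb, followed by Jund (760.2), Jun (652.7), Junb (330.3) and Fosb (215.1). The intervals of these neighbours did not overlap, but they do not cover an error in length, and the order of Jund and Jun was not settled. Fosl1 (16.7), Maff (14.9), Mafk (11.3) and Fosl2 (5.33) came far below, and Fosl1 and Maff, and likewise Maff and Mafk, had overlapping intervals. In Setd5+/-, Jund came first at 380.7 normalized counts per kb, then Jun at 87.0, Fos at 25.5 and Junb at 18.8, of which the last pair had overlapping intervals. Mafk (11.3), Fosl1 (10.2) and Fosl2 (6.97) followed, each with an interval overlapping that of its neighbour. Fosb, next after Junb in WT, was at 1.53 (0.681 to 2.37), with an interval overlapping that of Maff at 2.45 (0.789 to 4.11). Batf3, with so few reads, is left out of both orders.

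The make-up of the families differed accordingly. Summed per kb, the Fos family was at 2412 normalized counts per kb in WT and 44.2 in Setd5+/-, 54.6-fold lower, and the Jun family was at 1743 and 486.5, 3.58-fold lower. Fos made up 90.2% of its family in WT (89.8 to 90.6) and 57.7% in Setd5+/- (49.95 to 65.2). Fosl1 and Fosl2 together were a trace of the family in WT, at 0.693% (0.542 to 0.885) and 0.221% (0.181 to 0.270), and stood at 23.0% (16.5 to 31.1) and 15.8% (12.4 to 19.8) in Setd5+/-. Reads of the overlapping gene Ccdc85b, described below, may be part of the Fosl1 count. The shares also rest on exon length, which was 9.68 kb for Fosl2. The intervals cover neither limit. The share of Fosb was 8.92% (8.57 to 9.28) in WT and 3.46% (1.97 to 5.99) in Setd5+/-.

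By its GENCODE length, Jund was the largest part of the Jun family in both libraries, with 43.6% (42.4 to 44.8) in WT and 78.2% (76.2 to 80.2) in Setd5+/-. All shares and sums of the Jun family rest on that length, and in WT the lead of Jund over Jun may not hold with a longer one. Jun made up 37.4% (36.4 to 38.5) in WT and 17.9% (16.2 to 19.8) in Setd5+/-, and Junb 18.9% (18.1 to 19.9) and 3.87% (2.99 to 4.99). Fos family mRNA thus exceeded Jun family mRNA per kb in WT, with a ratio of 1.38, and was a small fraction of it in Setd5+/-, with a ratio of 0.0908. These are amounts of mRNA, and dimers were not measured.

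**Figure D4:**
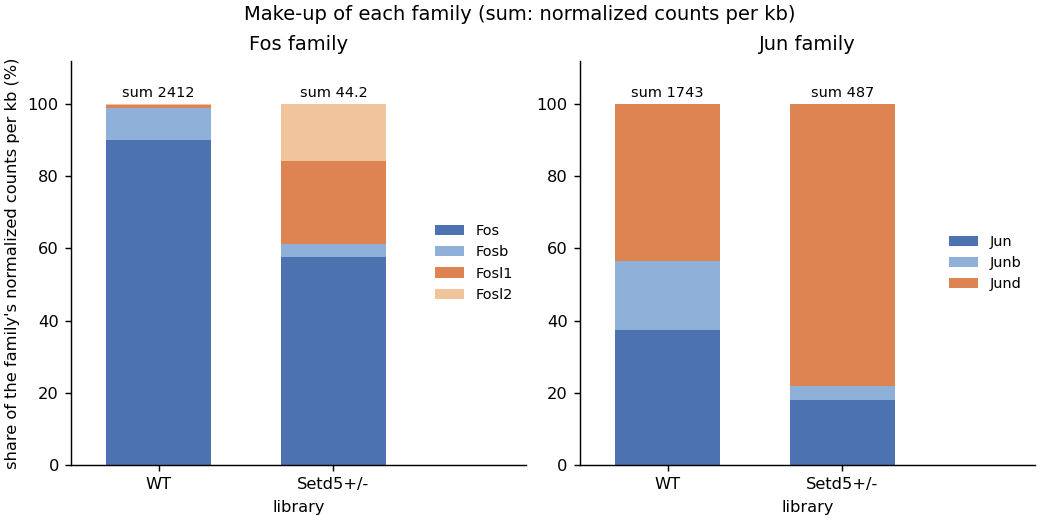
Share of each gene in the normalized counts per kb of its family (stacked bars, percent) in the WT and the Setd5+/- library, with the family sum above each bar. The bar of the Fos family is mostly Fos in WT (90.2%), and in Setd5+/- Fosl1 and Fosl2 take 23.0% and 15.8%.

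Some of these reads may belong to other genes, since the way reads were counted and whether strand was used are not given in the sources used here. The exons of 5 of the 10 genes overlap a gene on the other strand. Gm11175 covers 877 bases of Jund and was at 916.3 normalized counts in WT against 444.7 in Setd5+/-, a log2 fold change of -1.04 (-1.18 to -0.91). Junos shares 232 bases with Jun and was at 258.7 and 42.1 (-2.59, -2.98 to -2.20). Both antisense genes thus had fold changes close to those of their partners, and their reads cannot be told apart from those of Jund and Jun. Ccdc85b covers 1163 bases of Fosl1, was more abundant than Fosl1 itself at 304.2 and 134.6 normalized counts, and had a log2 fold change of -1.17 (-1.41 to -0.93). Prdx2 shares 173 bases with Junb (-0.75, -0.89 to -0.61), and Tmem184a, with a mean below the filter, shares 169 with Mafk. Fos, Fosb, Fosl2, Batf3 and Maff had no such overlap.

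Of 18 listed bZIP genes, most of which encode partners of AP-1 or small Maf proteins, 12 passed the filter, 3 were at least 2-fold higher in Setd5+/- and 1 was lower, with a median log2 fold change of 0.12. The other 8 (66.7%) lay within 2-fold, against 83.6% of all genes past the filter. Atf3, a stress-induced gene whose protein pairs with Jun proteins, had a mean of 3.87 normalized counts in WT and 27.8 in Setd5+/- (2.57, 1.62 to 3.52), and passed the filter through Setd5+/-. It lies on chromosome 1. Jdp2, whose protein binds AP-1 sites as a repressor, was at 63.2 and 159.2 (1.32, 1.00 to 1.64), and the other higher gene, Nfe2l1, was named after its values were seen (1.18, 1.12 to 1.23). Bach2, a repressor that pairs with small Mafs, was at 209.0 and 74.3 (-1.48, -1.80 to -1.16). Batf and Nrl had 0 reads in every sample.

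All 26 listed kinases and factors through which growth factors act on Fos and Jun passed the filter, with 1 higher, 1 lower and a median log2 fold change of 0.12. The other 24 (92.3%) lay within 2-fold, again against 83.6% of all genes, so that the count does not set these genes apart. Mapk7, which encodes ERK5, was at 1660 (1659.6) normalized counts in WT and 551.6 in Setd5+/-, a log2 fold change of -1.59 (-1.70 to -1.47). Rps6ka5, which encodes the kinase MSK1 of histone H3 and CREB, was at 123.4 and 250.6 (1.02, 0.77 to 1.26), just past 2-fold. Srf, named after its values were seen, had a log2 fold change of -0.58 (-0.80 to -0.37). Kinase activity was not measured.

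Of 11 listed genes of mRNA or protein turnover, only part of which are known to act on AP-1, all passed the filter. At least 2-fold lower were 3, 0 were higher, and the median log2 fold change was -0.47. The other 8 (72.7%) lay within 2-fold, against 83.6% of all genes past the filter, of which 6.14% were lower. Zfp36, which encodes the mRNA decay factor tristetraprolin and is itself an immediate early gene, was at 366.7 normalized counts in WT and 33.8 in Setd5+/- (-3.40, -3.83 to -2.98). Trib1, an adaptor of the ubiquitin ligase COP1, was at 591.9 and 144.2 (-2.03, -2.25 to -1.81), and the related Trib2, named after its values were seen, had a log2 fold change of -1.25 (-1.30 to -1.20).

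Genes known as AP-1 targets in other cells did not go one way. Of 24 listed, only 9 passed the filter, and their median log2 fold change was 0.60. Of these, 4 were at least 2-fold higher in Setd5+/-, 1 was lower and 4 (44.4%) lay within 2-fold. Among all genes past the filter, 83.6% lay within 2-fold, 10.3% were higher and 6.14% lower. Spp1, which encodes osteopontin, was at 4.42 normalized counts in WT and 98.9 in Setd5+/- (4.20, 3.36 to 5.04). Ptgs2, which encodes COX-2 and lies on chromosome 1, was at 5.25 and 40.1 (2.72, 1.87 to 3.57). Both passed the filter through their Setd5+/- level. Cd44 (1.89, 1.71 to 2.06) and Timp1 (1.17, 0.62 to 1.72), the other higher genes, were named after their values were seen. Plau, which encodes urokinase, was at 19.9 and 8.74 (-1.10, -1.97 to -0.23), and passed the filter through its WT level. Mmp3, Mmp10, Il6, Ereg, Penk and Krt18 had 0 reads in every sample.

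The other immediate early genes were mostly lower in Setd5+/- as well. Of 11 listed, 10 passed the filter, 9 were at least 2-fold lower in Setd5+/- and 1 was higher, and the median log2 fold change was -3.98. Within 2-fold lay 0 of them, against 83.6% of all genes past the filter, of which 6.14% were lower. Since the list was chosen with earlier results of these data known, nothing is read from this count. Egr1, a zinc finger factor that the same stimuli induce, was at 9865 normalized counts in WT and 69.9 in Setd5+/- (-7.12, -7.41 to -6.83), an interval that overlaps that of Fosb and lies below that of Fos. Nr4a1, a nuclear receptor gene, was at 1102 and 23.4 (-5.50, -5.99 to -5.00). Among the lower genes, Egr2 (4.37), Egr3 (1.59), Egr4 (2.78) and Arc (2.38) were under 10 normalized counts in Setd5+/-. They passed the filter through their WT level and were named after their values were seen. Ier5 was the exception, at 218.7 and 777.5 (1.83, 1.66 to 1.99), and lies on chromosome 1.

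**Figure D5:**
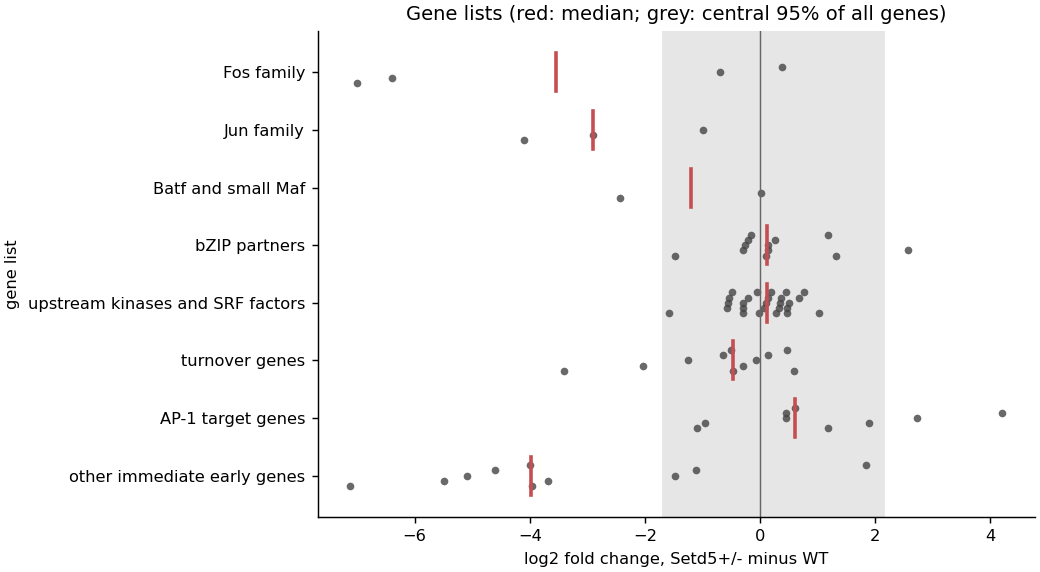
Log2 fold change (Setd5+/- minus WT) of the genes past the filter in each list, each point 1 gene, with the median of the list in red and the central 95% of all genes past the filter in grey. The other immediate early genes lie mostly to the left of the grey range (median -3.98). Within 2-fold of 0 lie 24 of 26 upstream genes, and 83.6% of all genes past the filter.

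Markers of other cells that such cultures can hold also differed between the libraries. For comparison, 6.14% of all genes past the filter were at least 2-fold lower in Setd5+/- and 10.3% higher. Summed oligodendrocyte lineage markers were at 40199 to 41066 normalized counts in WT, against 22248 to 23073 in Setd5+/-, and 2 of the 6 past the filter were at least 2-fold lower, Sox10 (-6.85) and Mbp (-2.18). In Setd5+/- Sox10 (1.59) and Mbp (6.35) had few normalized counts, and both passed through their WT level. Of 5 astrocyte markers, 3 were higher, led by Gfap (3.87) and Aqp4 (1.68), and 2 were lower, Slc1a2 (-1.93) and Aldh1l1 (-1.36), with sums of 5410 (5410.2) to 5540 (5540.1) in WT and 2419 to 2659 in Setd5+/-. Slc1a2 carried that sum, and the other 4 were at 787.6 to 807.7 in WT and 1237 to 1397 in Setd5+/-. Of 4 neuronal markers past the filter, Syt1 (-3.42) and Dcx (-3.20) were lower, while Neurod1 and Neurod6 had 0 reads. Syt1, at 5.16 normalized counts in Setd5+/-, passed through its WT level. The sum of the neuronal markers, 10232 to 10583 in WT and 12465 to 12591 in Setd5+/-, was almost all Map2 (0.32), and the other 6 were at 365.2 to 398.8 in WT and 73.9 to 88.1 in Setd5+/-. Of 8 mesenchymal markers only Thy1 passed (2.45), with sums of 243.0 to 294.8 and 1299 to 1366, and Lum had 0 reads. Thy1 carried these sums, and the other 7 were at 14.1 to 19.1 in WT and 4.76 to 14.3 in Setd5+/-. Of 3 endothelial markers only Kdr passed (1.36), through its Setd5+/- level, and the sums were 6.63 to 8.27 and 10.7 to 26.2. Without Kdr they were 0 to 2.48 and 1.19 to 2.38. Of 6 microglial markers only Csf1r passed (-0.86), with sums of 78.6 to 118.6 and 48.9 to 70.3, and Cx3cr1, Ptprc and C1qa had 0 reads. Csf1r carried these sums, and the other 5 were at 1.66 to 2.48 in WT and 2.38 to 7.15 in Setd5+/-. Summed NSC markers were at 74362 to 74521 in WT and 53715 to 54414 in Setd5+/-, but Fabp7 (-1.65) decided the direction, and the other 9 were at 38289 to 38577 in WT and 42147 to 43030 (43030.3) in Setd5+/-. These most abundant markers were left out after their values were seen. The part of these differences in the values of the AP-1 genes was not tested.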

How the data were processed

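RNA of cultured NSCs was profiled by RNA-seq in 6 samples, 3 labelled WT and 3 labelled Setd5+/-, from TruSeq RNA v2 libraries. According to the submitters' processing notes the authors used Trimmomatic, Bowtie2, DESeq2 and the mm10 build. The counting program and its strand setting are not given in the sources used here. The authors deposited normalized counts (gene counts divided by a DESeq2 size factor), whose decimal points had been lost. The table also holds the authors' comparison of the genotypes (log2 fold change, its standard error, a test statistic and p-values), which was not used. All per-sample columns were used (0 left out).

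Of 53110 rows, 672 carry no values. In the other 52438 the point was restored as the place, among 10 decimals, that gave whole reads within 0.001 reads in all samples and matched the deposited mean. In 26370 genes more than 1 place gave whole reads and the mean decided. All restored rows matched their mean. Restoring and the counting interval were tested on simulated data.

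Read pairs, taken as reads divided by 2, were compared by chi-square between samples. The 3 samples of a genotype were treated as parts of 1 library, so no test of genotype was made. Genes whose mean reached 10 normalized counts were kept, fold changes were taken on log2(mean + 1), and at least 2-fold was called. The 95% counting intervals use the variance over the mean between parts of a library (1.94 in WT, 1.91 in Setd5+/-), near 2, the value where both ends of a pair are counted. A gene with 3 reads or fewer in a library was given as a ratio with an exact interval. Locations are from GENCODE M21 and promoters from RefSeq. Python 3.11.15 with numpy 2.4.6, pandas 2.3.3, scipy 1.17.1 and matplotlib 3.10.9 was used.

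The genes and all lists were chosen with earlier results of these data known. Named were all 10 genes, Setd5 and, from each list, the 2 largest rises and the 2 largest falls of at least 2-fold. The alternatives were other scalings, pseudocounts, filters and thresholds, and leaving out each sample.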

Additional observations from a re-analysis of the deposited data

How the results depend on the processing

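With 1 library per genotype, depth gives narrow counting intervals for well counted genes, but nothing measures how clones or cultures of a genotype vary. No paired analysis was possible because the 3 samples of a genotype are parts of 1 library and the results come from no test. Of 111 alternative values of the AP-1 genes' fold changes, none changed sign for a gene called at least 2-fold, and 110 moved by less than their counting interval. The exception was Fos, whose log2 fold change ranged from -6.73 to -6.19 when a sample was left out, with -6.73 without the first Setd5+/- sample. The AP-1 genes called lower numbered 5 to 6 when a sample was left out and 6 under total count or upper quartile scaling, where Jund was included, 7 at a threshold of 1.5-fold and 4 with a mean of at least 50. Mafk ranged from -0.18 to 0.12, so its sign was not fixed. Total count scaling moved the median of all genes by -0.04 and upper quartile scaling by -0.01.

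The median of the AP-1 genes was -1.94 with a pseudocount of 5, -1.71 with no filter and -3.50 with a mean of at least 50. With no filter 1 AP-1 gene, Batf3, was called higher, and 2 bZIP partners were lower. The number of upstream genes called higher was 0 with a pseudocount of 5 and under total count scaling, 3 at 1.5-fold, and 0 to 1 when a sample was left out (0 without the second WT or the second Setd5+/- sample). The number of AP-1 targets called lower was 0 with a pseudocount of 5 and with a mean of at least 50, 2 under total count scaling, with no filter and at 1.5-fold, and 0 to 1 when a sample was left out (0 without the second WT or the first Setd5+/- sample). AP-1 targets called higher numbered 2 with a mean of at least 50, and the median of the targets ranged from 0.60 to 0.94 when a sample was left out, with 0.91 without the second WT sample and 0.94 without the third. Of all genes, 3141 were called higher and 2400 lower with no filter, 1032 and 588 with a mean of at least 50, and 3201 and 2521 at 1.5-fold. The cause of these shifts was not tested, beyond the number of genes that each filter or threshold keeps.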
